A study of Mus musculus with 6 samples.

Results

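Expression of 39 genes of the integrated stress response and of serine and folate metabolism was followed in red cell precursors that lack STAT5. The genes were taken from a fixed list of symbols. Each was read from the probe set that the array annotation pairs with that symbol alone, and from the one with the highest mean log2 signal over all 6 arrays where a gene has several. Of the 39 genes, 37 could be read in this way, among 18193 genes in all. Eif2s1, which encodes the alpha subunit of the initiation factor eIF2, and Pycr1, a proline synthesis gene, had no such probe set and were not analysed here. The arrays hold RNA of Ter119-positive cells of mouse fetal liver at embryonic day 14.5, in 3 wild type and 3 STAT5 KO pools. Ter119 is a surface antigen of maturing erythroid cells. A pool combined cells from 3 to 5 embryos of 1 genotype, so replicates are separate pools of embryos. The labels name no agent. The alleles behind the STAT5 KO label, and the strain, are not given in the sources used here. STAT5 names a pair of transcription factors, STAT5A and STAT5B, that the erythropoietin receptor activates.

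The integrated stress response slows translation when 1 of a family of kinases phosphorylates the alpha subunit of eIF2. Each kinase answers another signal: lack of heme (EIF2AK1, also called HRI), double-stranded RNA (EIF2AK2), unfolded protein in the endoplasmic reticulum (EIF2AK3, also called PERK) and lack of amino acids (EIF2AK4, also called GCN2). Translation of the transcription factor ATF4 then increases, and ATF4 induces genes of amino acid uptake, serine synthesis and mitochondrial folate metabolism. HRI is the main kinase of this family in erythroid cells, where it matches globin synthesis to the supply of heme. Serine gives 1-carbon units through folate enzymes for purine and thymidylate synthesis, and glycine for heme.

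Signals are the deposited linear intensities, and a difference is the mean log2 signal of the knockout pools less that of the wild type pools, given with the SE (standard error) that limma fitted. Where a further probe set of a gene is given, its SE comes from the same fit over all probe sets. Medians of the arrays ran from 175.6 to 215.8. The control level is a signal of 162.5, below which 95% of the values of 27 probe sets for Bacillus transcripts lie, which mouse RNA does not hold. As a check on the labels, the brightest probe set of Stat5a read 338.5, 418.5 and 365.5 in wild type pools and 132.4, 124.2 and 156.5 in knockout pools. That of Stat5b read 575.9, 551.7 and 506.1 against 204.9, 333.5 and 159.9. How these probe sets lie to the deleted part was not known here, so they check the labels only in part. All 10 measured erythroid markers lay above the control level, and so did all 15 measured hepatocyte markers. In such bulk RNA, fewer cells of a type and less RNA per cell cannot be told apart.

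None of the 37 genes passed an adjusted p of 0.05 in limma's test over all genes, which called 0.0440% of the 18193. The smallest adjusted p was 0.385, for Gpt2. With a mean-variance trend in the fit, which called 0.440% of all genes, the count was also 0, and the smallest adjusted p was 0.106, for Mthfd2. At an unadjusted p under 0.05 there were 5 members in the fit without the trend, against 8.90% of all genes, namely Gpt2, Mthfd2, Aldh18a1, Slc7a5 and Cbs. Of these, 1 was higher in knockout pools, Aldh18a1, against 3.41% of all genes, and 4 were lower, against 5.50%. With the trend, 10 members were at an unadjusted p under 0.05, against 11.0% of all genes. The submitters' criterion, a fold over 1.5 and an unadjusted p under 0.05 by the analysis of variance they name, here taken per gene in place of limma's p, was met by 1 higher gene, Aldh18a1 (1.97% of all genes), and by 3 lower ones, Gpt2, Mthfd2 and Slc7a5 (2.84%), where 4.81% of all genes met it in either direction. Without correction for the number of genes, these are values and not calls.

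The genes as a group did not lie on one side. In knockout pools 17 were higher and 20 lower, with a median difference of -0.0038, where the median of all genes was -0.08 and 58.1% of all genes were lower. Differences ran from -0.92 for Mthfd2 to 0.73 for Aldh18a1. The pools of the genotypes did not overlap for 11 of the 37 genes (29.7%), where this held for 16.9% of all genes. Of the 11, 6 were higher in all knockout pools (7.02% of all genes) and 5 were lower (9.85% of all genes). Leaving out 3 genes under the control level in both genotypes, Nupr1, Eif2ak4 and Slc7a11, gave 10 of 34 (29.4%) against 20.0% of the genes above that level, with 5 higher (9.15%) and 5 lower (10.9%). After median centring of the arrays, which moved the median of all genes from -0.08 to 0.03, 22 members were higher and 15 lower. The plot of differences by role shows members on both sides of 0 in each group other than serine synthesis.

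**Figure D1:**
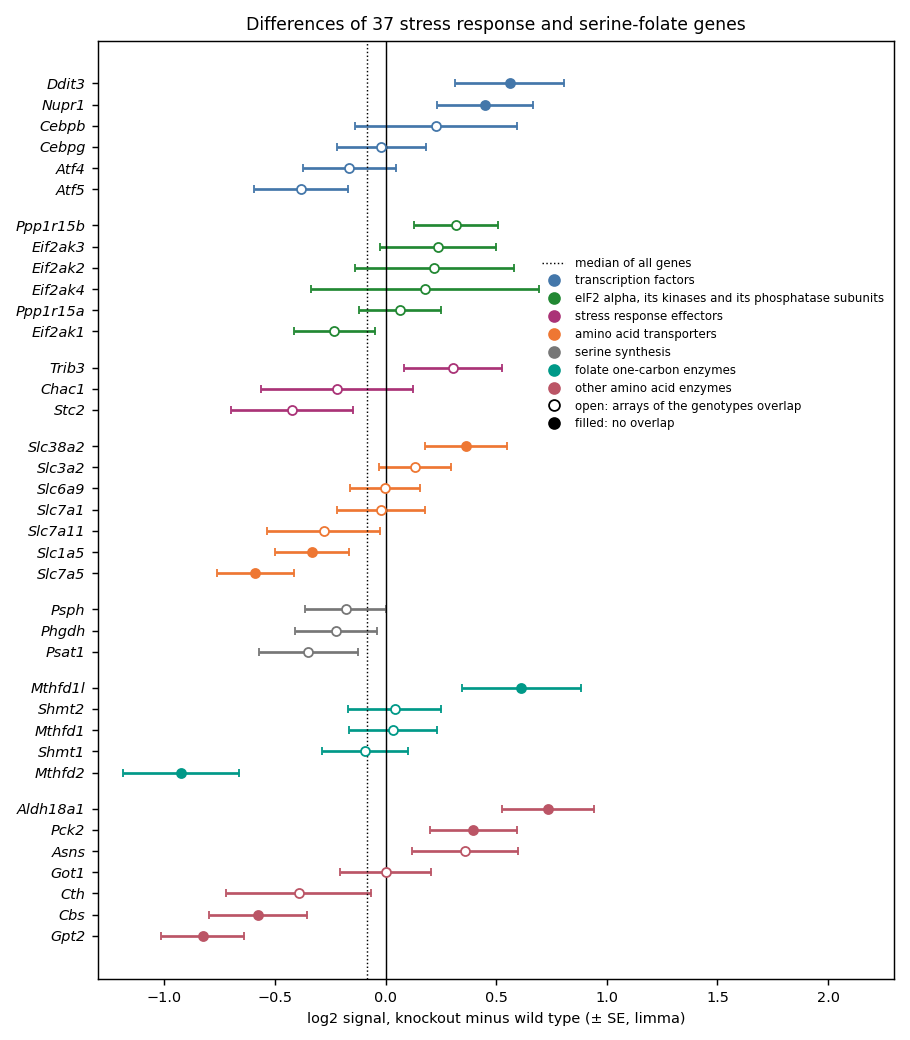
Difference in log2 signal (horizontal axis, knockout minus wild type, bars are ± SE of limma's fit, 3 pools per genotype) for the 37 measured genes, grouped and coloured by role. Filled points mark the 11 genes whose pools did not overlap between genotypes, and the dotted line marks the median of all genes at -0.08. Mthfd2 lies farthest to the left at -0.92 and Aldh18a1 farthest to the right at 0.73.

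ATF4 binds, with C/EBP factors, a composite element whose core was searched here as the letters TGATGNAA on both strands. The window was 250 bases before to 50 bases after each annotated start in RefSeq's mouse assembly GRCm38.p6. Of 35 members with a window, 8 (22.9%) held these letters, where 4.51% of the 27025 genes with a window did. The list was made of genes of this response, so a higher share there is no result of these data. The 8 genes were Asns, Chac1, Got1, Nupr1, Pck2, Pycr1, Slc7a11 and Trib3. The stretches of 5 are shown to set the letters beside the expression values, with the match in capitals, 5′ to 3′ on the strand of the gene. The letters stand in reverse complement in Chac1, Got1 and Pck2.
Asns, chr6:7693210-7693262, minus strand: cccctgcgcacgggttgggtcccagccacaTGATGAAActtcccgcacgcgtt
Pck2, chr14:55540133-55540200, plus strand: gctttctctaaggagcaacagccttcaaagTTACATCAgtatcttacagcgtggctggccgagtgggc
Chac1, chr2:119351019-119351086, plus strand: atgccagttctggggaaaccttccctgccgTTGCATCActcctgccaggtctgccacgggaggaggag
Got1, chr19:43524670-43524737, minus strand: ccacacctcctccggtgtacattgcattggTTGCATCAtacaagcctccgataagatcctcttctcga
Slc7a11, chr3:50443642-50443709, minus strand: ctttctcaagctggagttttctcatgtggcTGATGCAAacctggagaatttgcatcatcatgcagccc

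The match began 23 bases before the annotated start in Asns, 103 in Pck2, 193 in Chac1, 102 in Got1 and 66 in Slc7a11, which holds another 47 bases before its start. Genes that hold the letters differed either way. Pck2 (0.40), Asns (0.36), Trib3 (0.31) and Nupr1 (0.45) were higher in knockout pools, and Chac1 (-0.22) and Slc7a11 (-0.28) were lower. Got1 differed by -0.00015. Of these, Nupr1 and Slc7a11 lay under the control level in both genotypes. The letters of a STAT5 element, TTCNNNGAA, were found in 7 of the 35 members (20.0%) and in 9.55% of all genes with a window. Aldh18a1 held them in a pair of places, 154 and 39 bases before its annotated start, and both are shown because its difference was the highest of the members.
Aldh18a1, chr19:40588579-40588647, minus strand: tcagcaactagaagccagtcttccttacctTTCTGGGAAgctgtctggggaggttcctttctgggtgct
Aldh18a1, chr19:40588464-40588532, minus strand: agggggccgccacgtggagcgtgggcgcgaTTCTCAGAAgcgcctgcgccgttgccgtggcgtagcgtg

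The other 6 genes with these letters were Eif2ak2, Eif2ak3, Nupr1, Shmt2, Slc7a1 and Slc7a11. Their differences ran from -0.28 (Slc7a11) to 0.45 (Nupr1). A match of letters is a description of the window and shows no binding. The stretches come from RefSeq's assembly, since the array files name no genome build.

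Among the kinases and phosphatase subunits of eIF2 alpha, all 6 measured genes had overlapping pools. Eif2ak1, the heme-regulated kinase, read 16891.4, 15416.7 and 15238.7 in wild type and 12756.4, 15627.7 and 12262.0 in knockout pools. Knockout pools 1 and 3 lay below all wild type pools, and pool 2 lay among them. The difference was -0.23 (SE 0.18, adjusted p = 0.708, limma). Another of its 5 probe sets, at a signal of 2349.8, 2379.0 and 2334.0 in wild type, read 1554.9, 1761.3 and 1390.0 in knockout pools, without overlap (-0.59, SE 0.20). The dimmest 2 probe sets of Eif2ak1 differed by 0.13 and 0.52, so the probe sets of this gene gave both directions.

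Eif2ak2 and Eif2ak3 differed by 0.22 and 0.24, less than their SE of 0.36 and 0.26, and Eif2ak4, under the control level, by 0.18. Eif2ak2 differed by -0.088 without knockout replicate 2. Ppp1r15a, the inducible subunit (GADD34) that brings protein phosphatase 1 to eIF2 alpha, differed by 0.07 (SE 0.19). Its signals were 13720.0, 15710.3 and 13855.7 in wild type and 13547.9, 17358.5 and 14552.2 in knockout pools. The genotypes thus shared most of their range. The constitutive subunit gene Ppp1r15b had the smallest p of these genes and read 2429.2, 2167.9 and 2800.7 against 3156.6, 2743.7 and 3294.4. Knockout pool 2 lay within the wild type range, and the difference was 0.32 (SE 0.19, adjusted p = 0.642, limma). The other probe set of Ppp1r15b differed by 0.02, which is also the value left when probe sets with the suffix _a_at are dropped.

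Among the transcription factors, Atf4 itself differed by -0.16 (SE 0.21), with 7643.5, 7753.8 and 8577.0 in wild type and 5686.8, 8304.5 and 7654.3 in knockout pools. As ATF4 is controlled mainly at translation, its transcript level is not a measure of its protein. A second Atf4 probe set did not overlap, from 2424.9, 2347.6 and 3109.0 to 1926.4, 2065.2 and 2030.2, a difference of -0.38 (SE 0.21). Both bright probe sets of Atf4 thus had lower knockout means. Ddit3, which encodes the stress factor CHOP, read 936.4, 818.9 and 1218.1 in wild type and 1359.8, 1798.4 and 1223.8 in knockout pools. All knockout pools lay above all wild type pools, but knockout pool 3 and wild type pool 3 lay close together. The difference was 0.56 (SE 0.25, adjusted p = 0.576, limma, and 0.342 with the trend), a 1.47-fold higher level.

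Atf5, a relative of ATF4 that is induced in the same response, differed by -0.38 (SE 0.21), with knockout pool 3 above wild type pool 1. It read 814.8, 1177.0 and 1060.2 in wild type and 716.8, 752.9 and 849.5 in knockout pools. Cebpb and Cebpg, C/EBP factors that pair with ATF4, differed by 0.23 (SE 0.37) and -0.02 (SE 0.20). Cebpb was at 1545.0 in knockout pool 3 and between 675.1 and 1159.9 in the other pools, and its difference was -0.089 without knockout replicate 3. Nupr1, a stress-induced chromatin protein, read 18.8, 14.4 and 18.2 against 22.0, 20.5 and 28.0. Its pools did not overlap (0.45, SE 0.22), but all values lay far under the control level of 162.5, and no fold is given.

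The stress response effectors had no member without overlap. Stc2, a secreted glycoprotein induced by ATF4, had the smallest p of them and read 723.9, 800.9 and 545.2 in wild type and 387.9, 665.9 and 508.2 in knockout pools. The pools overlapped, with a difference of -0.42 (SE 0.28, adjusted p = 0.664, limma), and -0.23 without knockout replicate 1. The other Stc2 probe set above the control level differed by -0.60. Trib3, a pseudokinase that dampens CHOP and ATF4, differed by 0.31 (SE 0.22), and by -0.03 at its other probe set. Chac1, which degrades glutathione, differed by -0.22 (SE 0.34), and by 0.053 without wild type replicate 2.

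**Figure D2:**
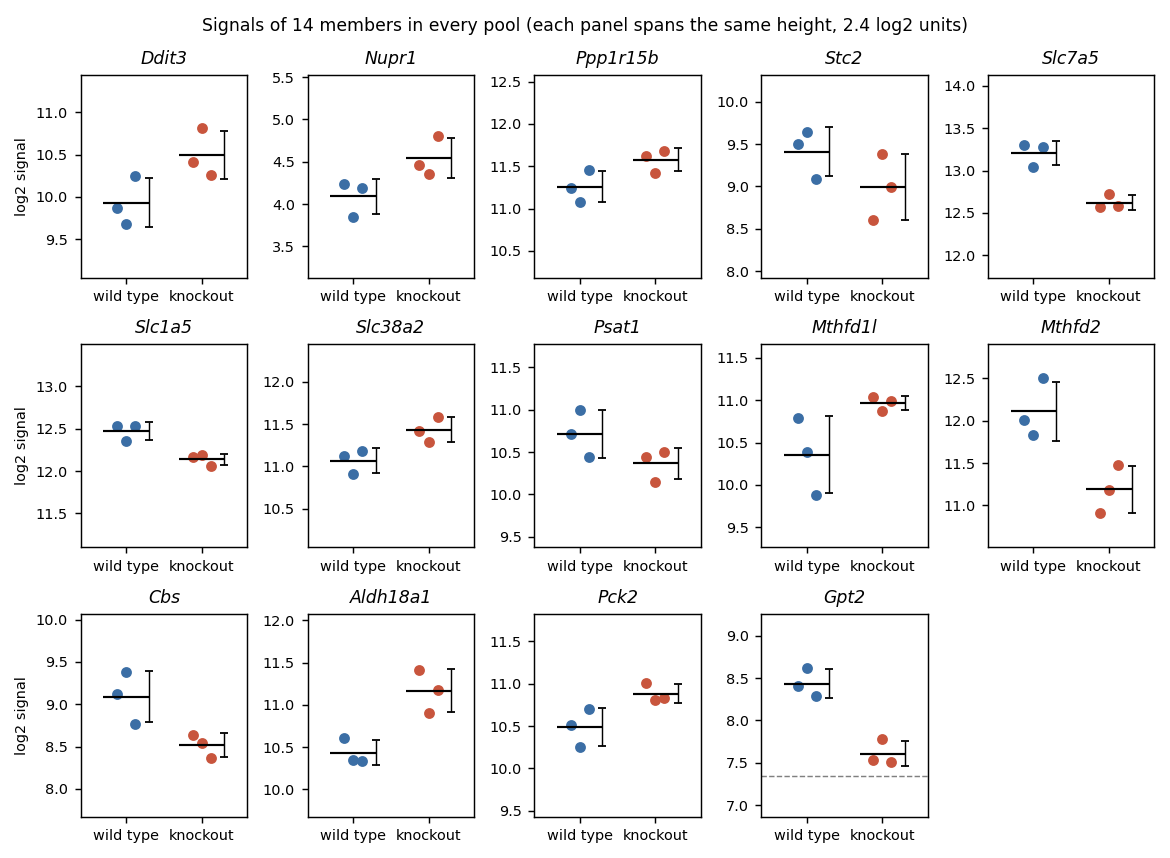
Log2 signal (vertical axis, each panel spanning the same height) of 14 genes in every pool, with wild type pools in blue and knockout pools in red, the group mean as a line and the SD (n = 3) as a bar. The dashed line in the Gpt2 panel is the control level. Slc7a5, Slc1a5, Mthfd2, Cbs and Gpt2 are lower in every knockout pool, and Ddit3, Nupr1, Slc38a2, Mthfd1l, Aldh18a1 and Pck2 are higher.

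The amino acid transporters held members without overlap on either side. Slc7a5 encodes LAT1, which exchanges large neutral amino acids such as leucine. It read 10116.2, 8463.0 and 9961.2 in wild type and 6054.3, 6770.6 and 6108.4 in knockout pools. Each knockout pool lay below each wild type pool, with a difference of -0.59 (SE 0.18), 1.51-fold lower. The adjusted p was 0.488 (limma) and 0.117 with the trend. Slc3a2, the heavy chain (CD98) that carries LAT1 and the cystine transporter to the membrane, differed by 0.13 (SE 0.16). Its signals ran from 8284.2 to 9042.1 in wild type and from 8950.6 to 9976.9 in knockout pools. The Slc3a2 pools overlapped and the difference was under its SE, so it is given no side.

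Slc1a5 encodes ASCT2, a glutamine and neutral amino acid transporter. It read 5938.9, 5227.4 and 5910.0 in wild type and 4577.4, 4672.3 and 4280.3 in knockout pools, without overlap (-0.33, SE 0.17, adjusted p = 0.598, limma). Its second probe set did not overlap either, at -0.38. Slc38a2 encodes SNAT2, a transporter of small neutral amino acids that amino acid lack induces. Its values were 2222.1, 1916.0 and 2321.1 against 2741.3, 2502.1 and 3072.5, higher in each knockout pool (0.36, SE 0.18, adjusted p = 0.601, limma). A dimmer Slc38a2 probe set read 700.9, 1072.5 and 1004.3 against 1605.1, 1716.2 and 2374.2, a difference of 1.04 (SE 0.28). The dimmest differed by -0.08. The 3 probe sets of Slc38a2 thus gave differences of unequal size and, in the dimmest, of opposite sign.

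Slc6a9 encodes GLYT1, which supplies erythroid cells with glycine for heme. It was even across pools, from 7224.4 to 7788.7 in wild type and from 7416.7 to 7480.7 in knockout pools (-0.0038, SE 0.16). Its other probe set differed by -0.33 without overlap. Slc7a1, a transporter of cationic amino acids, differed by -0.02 (SE 0.20). Slc7a11, the cystine transporter, lay under the control level in both genotypes (-0.28, SE 0.26).

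All 3 serine synthesis genes had lower knockout means, each with overlapping pools. Psat1, the aminotransferase of the pathway, had the smallest p of them. It read 1672.3, 2048.4 and 1386.5 in wild type and 1391.3, 1137.1 and 1449.9 in knockout pools. Wild type pool 3 lay below knockout pools 1 and 3, and the difference was -0.35 (SE 0.22, adjusted p = 0.657, limma), or -0.21 without wild type replicate 2. Phgdh, which takes the first step from glycolysis to serine, differed by -0.22 (SE 0.19). A second Phgdh probe set read 3832.8, 5431.3 and 3124.2 against 2482.8, 2520.1 and 3050.6, without overlap (-0.59, SE 0.28). The 4 Phgdh probe sets carry the suffix _x_at, which marks probes that can also match other transcripts, and 1 of them differed by 0.05. Psph, the last enzyme, differed by -0.18 (SE 0.18).

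Hepatocytes also use serine synthesis and sulfur amino acid enzymes, and their markers were lower in the same pools. All 15 measured hepatocyte markers had lower knockout means (median difference -0.73), where 58.1% of all genes were lower, and none was at 0. Of the markers, 10 were lower without overlap, against 9.85% of all genes. Of these, Cps1, of the urea cycle, differed by -1.43 (SE 0.31) and Ahsg, a plasma protein, by -1.11 (SE 0.33). Their summed signal ran from 161910 to 274276 in wild type and from 138600 to 152848 in knockout pools. Within wild type, the mean deviation of the hepatocyte markers was 0.03, 0.44 and -0.47 in pools 1, 2 and 3, and that of the serine synthesis genes was 0.08, 0.13 and -0.21. Pool 2 was the highest and pool 3 the lowest of the wild type pools in both. The medians of the whole arrays had the same order, at 194.1, 215.8 and 175.6 in wild type pools 1, 2 and 3. The part of the hepatocyte markers, or of the array medians, in the result was not tested.

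Most endothelial and erythroid markers were lower as well. Of 10 endothelial markers 9 were lower (median -0.52), and none was at 0. There were 2 lower without overlap (9.85% of all genes). These were Eng, a receptor of vascular endothelium (-0.83, SE 0.27), and Lyve1, a receptor of sinusoidal endothelium, whose knockout mean lay under the control level. Their summed signal ran from 3297 to 5526 in wild type and from 2761 to 3491 in knockout pools. Of the 10 erythroid markers 9 were lower (median -0.19), 4 of them without overlap (9.85% of all genes). Their summed signals ran from 275863 to 286020 in wild type and from 226652 to 280580 in knockout pools. Tfrc, the transferrin receptor, differed by -0.38 (SE 0.18) and Epb42, of the membrane skeleton, by -0.39 (SE 0.19).

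The 10 macrophage markers were split, 6 higher and 4 lower (median 0.23), with summed signals from 16863 to 27457 in wild type and from 21927 to 27514 in knockout pools. Vcam1, an adhesion receptor, differed by -0.68 (SE 0.27), and Cd163 lay under the control level in both genotypes. Of 6 measured megakaryocyte markers 3 were higher and 3 lower (median 0.03), with sums from 3523 to 14180 and from 4172 to 5493. Gp9, of the platelet glycoprotein complex, differed by 0.58 (SE 0.30). Ppbp, a platelet chemokine, was at 3806.3 in wild type pool 3 and between 202.3 and 616.3 in the other pools. The part of these cells in the members' differences was not tested.

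**Figure D3:**
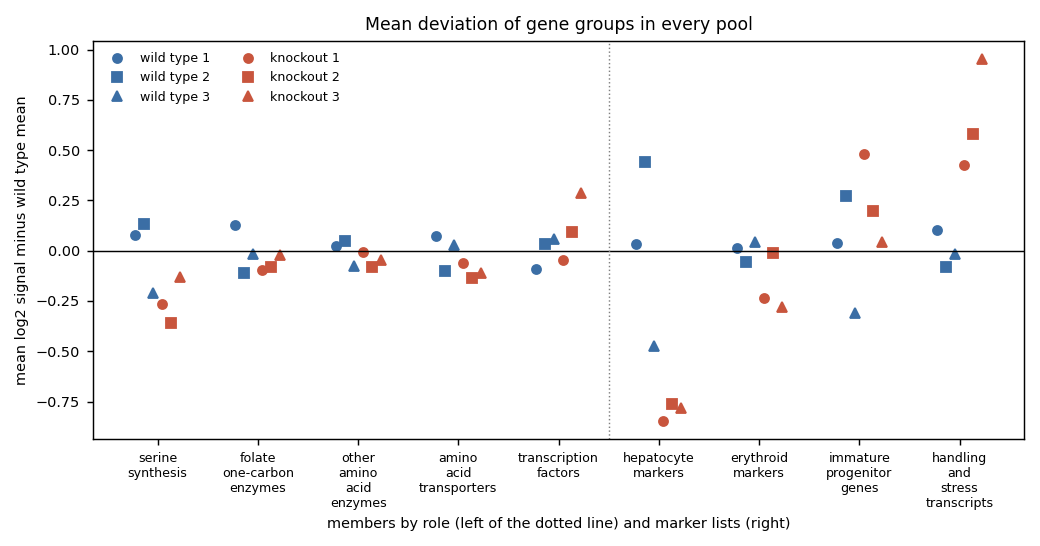
Mean log2 signal of gene groups in every pool as a deviation from the wild type mean (vertical axis). Members by role stand left of the dotted line and marker lists right of it, with blue for wild type, red for knockout and 1 symbol per replicate number. Hepatocyte markers lie between -0.85 and -0.76 in knockout pools, and handling transcripts between 0.42 and 0.95.

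The folate enzymes held the lowest difference of all members beside one of the higher ones. Mthfd2, the mitochondrial methylenetetrahydrofolate dehydrogenase, read 4123.4, 3642.6 and 5800.8 in wild type and 1926.1, 2325.9 and 2842.2 in knockout pools. Every knockout pool lay below every wild type pool. The difference was -0.92 (SE 0.26), 1.90-fold lower, with an adjusted p of 0.474 (limma), or 0.106 with the trend. Its second probe set gave 2919.4, 2261.7 and 2013.1 against 1144.7, 1431.6 and 1505.0, again without overlap (-0.81, SE 0.25). Both probe sets of Mthfd2 were thus lower in all knockout pools.

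Mthfd1l, the mitochondrial enzyme that releases formate in the step after MTHFD2, lay on the other side. It read 1771.0, 1345.4 and 945.8 in wild type and 2108.6, 1878.7 and 2037.5 in knockout pools. The wild type pools were spread widely and the knockout pools narrowly, with no overlap. The difference was 0.61 (SE 0.27, adjusted p = 0.574, limma), and 0.38 without wild type replicate 3. The gene has 1 probe set.

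Shmt1 and Shmt2, the cytoplasmic and mitochondrial enzymes that turn serine into glycine, differed by -0.09 (SE 0.19) and 0.04 (SE 0.21). Mthfd1, the trifunctional cytoplasmic enzyme, differed by 0.03 (SE 0.20). All of these overlapped at the brightest probe set. For Shmt1, however, the 3 dimmer probe sets differed by -0.25, -0.41 and -0.90, and the pools did not overlap at the latter 2. The dimmest Shmt1 probe set read 347.1, 465.1 and 301.8 in wild type and 147.6, 241.4 and 210.8 in knockout pools. Wild type pool 2 was the highest and pool 3 the lowest at that probe set, as for the hepatocyte markers and the array medians. The brightest Shmt1 probe set was instead highest in pool 1 and lowest in pool 2 (1868.1, 1505.8 and 1564.4). Mthfd2 was lowest in pool 2 and highest in pool 3 at its brightest probe set. The part of the hepatocyte markers in these values was not tested.

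Among the other amino acid enzymes, 4 of 7 measured genes had no overlap, where 16.9% of all genes had none. Of these, 2 were higher (7.02% of all genes) and 2 lower (9.85% of all genes). Aldh18a1 makes the precursor of proline and ornithine from glutamate. It read 1558.8, 1308.1 and 1297.4 in wild type and 2729.6, 1921.3 and 2318.2 in knockout pools. Each knockout pool was higher, with a difference of 0.73 (SE 0.21), 1.66-fold, and an adjusted p of 0.474 (limma), or 0.117 with the trend. Of its 5 probe sets, 4 were higher without overlap, at 0.63, 0.66, 0.73 and 0.80, and the dimmest differed by -0.07. All but the probe set at 0.80 carry the suffix _x_at, the brightest included.

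Pck2, the mitochondrial phosphoenolpyruvate carboxykinase, read 1460.1, 1215.9 and 1664.8 against 2059.5, 1793.9 and 1825.2. It was higher in each knockout pool (0.40, SE 0.20, adjusted p = 0.598, limma), and its dimmer probe set differed by 0.70 with overlap. Asns, the asparagine synthetase that is a standard target of ATF4, read 10837.9, 7519.0 and 11831.1 in wild type and 12238.0, 14399.1 and 11534.8 in knockout pools. Wild type pool 3 lay above knockout pool 3, and the difference was 0.36 (SE 0.24). At its second probe set the Asns pools did not overlap (0.39, SE 0.25).

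Gpt2, the mitochondrial alanine aminotransferase, read 338.8, 392.2 and 311.6 in wild type and 185.2, 219.6 and 182.3 in knockout pools. The knockout pools lay just above the control level and below every wild type pool. The difference was -0.83 (SE 0.19), 1.77-fold lower (adjusted p = 0.385, limma, and 0.305 with the trend). Another pair of Gpt2 probe sets differed by -0.72 and -0.59, each with overlap. The last lay under the control level in every pool and is not used. The 3 others thus had lower knockout means.

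Cbs, which joins serine and homocysteine in the first step to cysteine, read 556.3, 666.6 and 437.2 against 399.6, 371.4 and 328.9, without overlap (-0.58, SE 0.22, adjusted p = 0.559, limma). The second Cbs probe set, with both group means under the control level, differed by -0.12 with overlap. Cth, the next enzyme on the way to cysteine, read 565.1, 825.9 and 368.1 against 440.8, 367.7 and 468.7 (-0.39, SE 0.33). The difference of Cth was -0.11 without wild type replicate 2. At the brightest probe sets of Cbs, Cth and Gpt2, wild type pool 2 was the highest and pool 3 the lowest. This is the order of the hepatocyte markers and also of the array medians. Other lower members without overlap did not share that order at their brightest probe set: pool 2 was the lowest wild type pool in Mthfd2, Slc7a5 and Slc1a5. The order differed between probe sets of a gene. The second Mthfd2 probe set was highest in wild type pool 1 and lowest in pool 3. The second Slc1a5 probe set was lowest in wild type pool 1 and highest in pool 3. The part of these markers in the result was not tested. Got1, the cytoplasmic aspartate aminotransferase, read between 260.1 and 326.2 in wild type and between 262.6 and 351.2 in knockout pools.

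**Figure D4:**
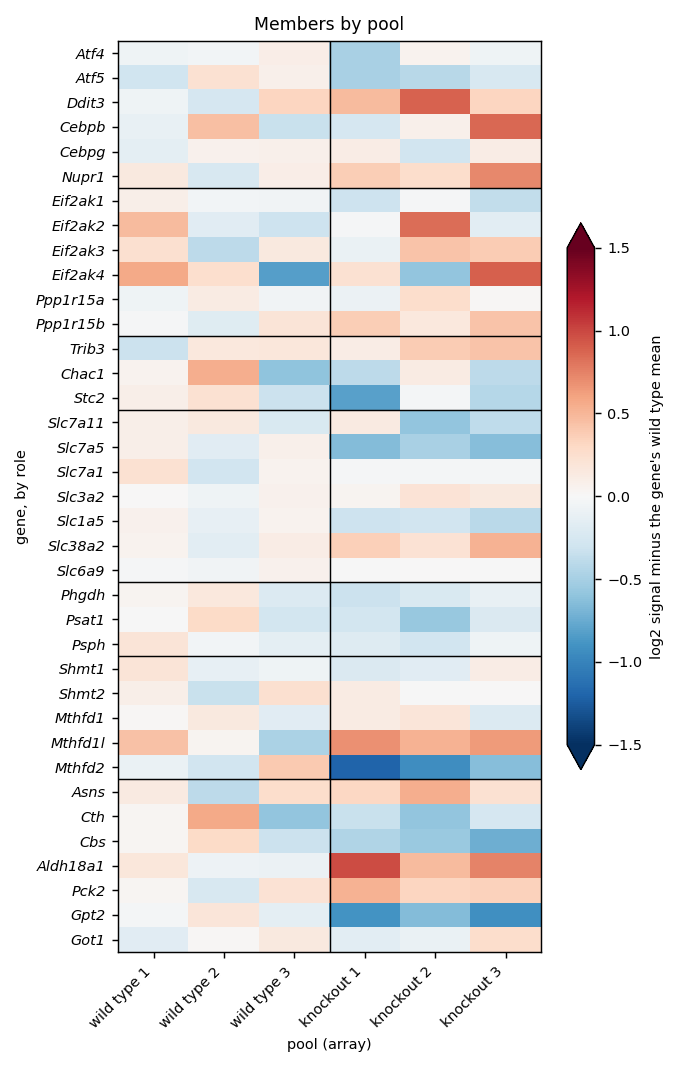
Log2 signal of the 37 measured genes (rows, by role) in the 6 pools (columns), as a deviation from the gene's wild type mean, with red for higher and blue for lower. Mthfd2 and Gpt2 are blue and Aldh18a1 and Mthfd1l are red in all knockout pools. Psat1, Cth and Cbs are reddest in wild type pool 2.

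Of the 37 genes, 28 have several probe sets. The 37 genes have 87 in all, and 75 of these exceeded the control level in 1 or both genotypes. Among these 75, 33 were higher and 42 lower in knockout pools. There were 10 higher without overlap (9.91% of all such probe sets) and 15 lower without overlap (10.2%). Of 23 genes with over 1 probe set above that level, 10 had probe sets on both sides of 0. They were Cebpg, Eif2ak1, Eif2ak2, Trib3, Slc7a1, Slc38a2, Phgdh, Shmt2, Mthfd1 and Aldh18a1. Mthfd2, Slc1a5, Gpt2, Asns, Pck2 and Stc2 were on 1 side at all their probe sets above that level. So were Atf4, Ddit3, Cebpb, Ppp1r15b, Slc6a9, Psat1 and Shmt1. The second Ddit3 probe set differed by 0.38, with overlap.

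**Figure D5:**
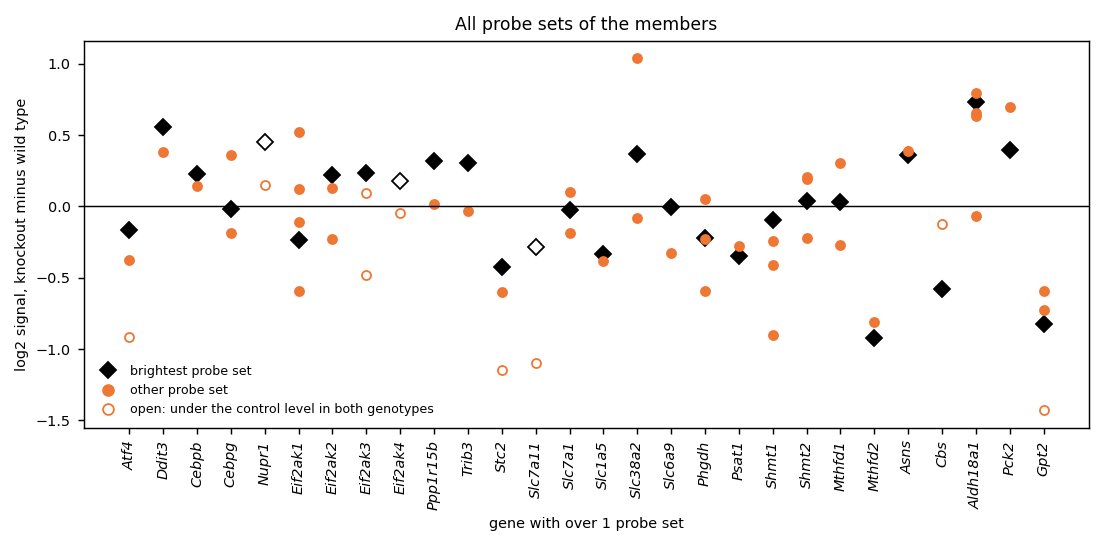
Difference in log2 signal (vertical axis, knockout minus wild type) at each probe set of the 28 genes with several. Black diamonds are the brightest probe set of a gene, orange circles the others, and open symbols lay under the control level in both genotypes. Slc38a2 spans -0.08 to 1.04 and Eif2ak1 -0.59 to 0.52, while both probe sets of Mthfd2 lie near each other at -0.92 and -0.81.

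Other genes of the pathways were read from lists that hold no member. Of 33 further genes of the stress response and its neighbours, 32 were measured, 17 higher and 15 lower, with a median of 0.03. There were 3 higher without overlap (7.02% of all genes) and 3 lower (9.85% of all genes). None passed in the fit without the trend. With the trend 1 passed, lower (0.198% of all genes): Nars, the asparaginyl-tRNA synthetase gene. It fell from 10143.9, 9009.5 and 9632.6 to 5033.3, 5364.4 and 4655.0. The difference was -0.94 (SE 0.17 and adjusted p = 0.284 without the trend, and adjusted p = 0.0148 with it, limma). Asns, which makes the amino acid that NARS loads, was not lower. Xbp1, the factor of another endoplasmic reticulum stress branch, differed by -0.59 (SE 0.17), without overlap.

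Of 30 further genes of folate and 1-carbon metabolism, 25 were measured, 8 higher and 17 lower, with a median of -0.19 and none past the threshold in either fit. The smallest p-values were those of Gldc, of the glycine cleavage system, and Ggh, which trims folate chains. Gldc differed by -1.02 (SE 0.27) and Ggh by -0.46 (SE 0.19), both without overlap. The hepatocyte markers given above were lower in the same pools, and were highest in wild type pool 2 and lowest in pool 3 within wild type. In wild type pools 1, 2 and 3 Gldc read 596.0, 932.9 and 705.4, and Ggh read 301.9, 227.3 and 289.5. Pool 1 was thus the lowest for Gldc and pool 2 for Ggh. The part of the hepatocyte markers in these values was not tested.

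Transcripts that tissue handling and stress induce were higher in knockout pools for 13 of 16 genes (median 0.41). There were 6 higher without overlap (7.02% of all genes) and 1 lower without overlap (9.85% of all genes). Summed signals of the list ran from 34774 to 39913 in wild type and from 42513 to 57323 in knockout pools. None passed in the fit without the trend, and with the trend 1 passed, higher (0.242% of all genes): Hspa1a, a heat shock protein gene, rose by 2.28 (SE 0.49, adjusted p = 0.0488 with the trend and 0.355 without it, limma). Hspa1b, its near copy, differed by 2.16 (SE 0.52), and probes of such copies may share signal. The mean deviation of the list was highest in knockout pool 3 (0.95), where Cebpb was highest as well, while Ddit3 was highest in knockout pool 2. Of 10 genes of immature progenitors 5 were higher and 5 lower. No overlap was seen for 4 of the higher ones (7.02% of all genes) and 0 of the lower ones (9.85%). The same counts, 4 and 0, were at an unadjusted p under 0.05 in limma's test (3.41% and 5.50% of all genes). None of the progenitor genes passed after adjustment. Their summed signals ran from 14270 to 16326 in wild type and from 17679 to 20796 in knockout pools. Myc, a transcription factor of cell growth, differed by 1.10 (SE 0.23) and Myb, a factor of progenitors, by 1.65 (SE 0.40), both without overlap. The part of these groups in the members' differences was not tested.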

How the data were processed

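Each of 6 RNA pools had 1 Affymetrix Mouse430_2 array, and groups came from the sample titles. The authors deposited 1 linear intensity per probe set and array. Per the submitters' processing notes, RMA and Partek were used, with no version. The deposited intensities are linear, and each array has a mean of 500 when trimmed by 2% at either end. This scaling is not described in the sources used here, so whether the deposited intensities are RMA output is not known. They were taken to log2 with no offset (no value was 0 or below). Of 45037 probe sets beside 64 controls, 34945 had 1 gene symbol, 932 several and 9160 none. Entrez IDs were matched to RefSeq's GRCm38.p6 table (34741 matched, 0 changed).

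The test was limma 3.58.1 (R 4.3.3), lmFit and eBayes over 18193 genes, with Benjamini-Hochberg adjustment. Members, lists and tests were chosen with earlier results of these data known. The naming rule took in full the members without overlap, those with an adjusted p under 0.1 with the trend, and the member with the smallest p of each role. Further members, and probe sets given by value, were chosen after their values were seen. From each other list the 2 genes with the smallest p were named. Scripts were tested on simulated data. With 3 arrays a group, precision is limited by the number of arrays.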

Additional observations from a re-analysis of the deposited data

How the results depend on the processing

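No member was called with the trend, with the trend and robust estimation, by the methods' t-test, after quantile normalization or median centring, without the lowest 50% of probe sets, with 32 added to the linear value, with the mean of all probe sets, without probe sets ending in _x_at, _s_at or _a_at, with the replicate block, or without any 1 array with or without the trend. A combination chosen after seeing the data, the trend with the replicate block, called 1 member, Mthfd2, lower (adjusted p = 0.0487, limma). In the genes' deviations from the mean of their genotype, and not in the signals themselves, same-numbered pools correlate at 0.023, 0.041 and 0.037. By this measure each pool correlates best with its own number. The labels do not say whether pools of 1 number were handled together, and correlations this small cannot settle it.

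The count of all genes called was 8 without the trend, 80 with it, 66 with robust estimation, 4 by the methods' t-test, 15 after quantile normalization, 3 after median centring, 20 without the dim probe sets, 3 without probe sets of those suffixes, 0 with the replicate block (1565 at an unadjusted p under 0.05), 75 with the block and the trend, and 0 to 75 without 1 array. Without the trend it was 0 whichever array was left out (1272 to 2074 at an unadjusted p under 0.05), and with it, a combination also chosen after seeing the data, 22, 29 and 75 without wild type replicates 1, 2 and 3 and 9, 34 and 11 without knockout replicates 1, 2 and 3.

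Members without overlap numbered 7 of 29 without those suffixes (16.4% of all genes), 9 after median centring (15.7%), 13 after quantile normalization (16.8%), 14 with the mean of all probe sets (16.5%) and 12 to 21 without 1 array. The 21 came without wild type replicate 3, where 34.1% of all genes did not overlap, and the share was 25.3% to 27.8% without each other array. The members' median moved to 0.11 after median centring and lay between -0.089, without knockout replicate 3, and 0.020 without 1 array. The 14 genes described in full kept their direction under each alternative that could give a value. This was largely fixed in advance. Of the 14, 11 were taken for having no overlap, so leaving out 1 array could not turn them. The trend, robust, t-test and block fits leave every difference as it is. Among the members not described in full, Slc6a9, Got1, Cebpg, Slc7a1 and Shmt1 turned positive after median centring. Slc6a9 and Got1 did so, and Shmt2 and Mthfd1 turned negative, after quantile normalization. Got1 also turned with 32 added, and Cebpg and Eif2ak3 with the mean of all probe sets. Without 1 array, 12 members turned in at least 1 case: Cebpb, Cebpg, Eif2ak2, Eif2ak4, Ppp1r15a, Chac1, Slc7a1, Slc6a9, Shmt1, Shmt2, Mthfd1 and Got1. Intensities near the control level limit what Gpt2, Nupr1, Slc7a11 and Eif2ak4 can show.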
